A study of Mus musculus with 84 samples.

Results

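The genes described here are 44 mouse genes of DNA replication and cell division, chosen by gene symbol, out of 48794 genes listed in the expression tables of this series. They comprise 12 genes of the replication machinery, 5 genes of deoxynucleotide supply, 20 mitotic genes, 6 genes that control the step from G1 into S phase, and Ung, the uracil-DNA glycosylase that removes uracil from DNA. RNA was sequenced from 42 liver and 42 epididymal white adipose tissue (eWAT) samples of diet-induced obese mice, in 7 groups of 6 mice per tissue. All mice were male C57BL/6J, kept single-housed on a 60% high-fat diet and 22 weeks of age when dosing began, so every group, vehicle included, was obese and no lean group was measured. They received once-daily subcutaneous injections for 30 days. The groups were vehicle, BI456906 at 3, 10, 20 or 30 nmol/kg, and semaglutide (EX10970 in the sample titles) at 20 or 100 nmol/kg. BI456906 is an acylated glucagon analogue that activates both the glucagon receptor and the GLP-1 receptor, and semaglutide is an acylated GLP-1 analogue that activates the GLP-1 receptor alone. The labels do not tie liver and fat libraries to the same mouse, so the tissues were treated as separate sets of mice.

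Before S phase, cyclins and their kinases release E2F transcription factors, which switch on the genes that load the MCM helicase onto DNA and those that make deoxynucleotides. Mitotic genes are switched on later, through factors that include FOXM1 and that bind CHR and CCAAT promoter elements, so their RNA marks cells on the way to division. Hepatocytes of an adult liver seldom divide, whereas obese epididymal fat holds macrophages and stromal cells that can proliferate. Uracil enters DNA when dUTP is used in place of dTTP or when cytosine is deaminated. DUT keeps dUTP low, and UNG, SMUG1, TDG and MBD4 cut out uracil or related bases at the start of base excision repair.

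The promoters of a replication gene, a mitotic gene and Ung are shown because these groups of genes are described apart below. Each window holds 250 bases before and 50 bases after an annotated start on GRCm38.p6 (RefSeq), read 5′ to 3′ on the gene's strand. Capitals mark matches, on either strand, to the E2F letters TTTCGCGC or TTTGGCGC, the CHR letters TTTGAA, the CCAAT letters bound by NF-Y, and the TGACG part of a cAMP response element. The printed window of Mcm7 is chr5:138171834-138172133 on the minus strand, that of Mki67 chr7:135716330-135716629 on the minus strand, and that of Ung chr5:114130185-114130484 on the plus strand.
Mcm7: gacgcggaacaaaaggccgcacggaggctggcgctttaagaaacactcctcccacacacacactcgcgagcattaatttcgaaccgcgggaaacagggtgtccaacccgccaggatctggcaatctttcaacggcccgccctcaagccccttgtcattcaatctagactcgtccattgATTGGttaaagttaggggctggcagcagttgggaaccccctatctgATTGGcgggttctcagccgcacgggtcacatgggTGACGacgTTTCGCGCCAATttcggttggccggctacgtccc
Mki67: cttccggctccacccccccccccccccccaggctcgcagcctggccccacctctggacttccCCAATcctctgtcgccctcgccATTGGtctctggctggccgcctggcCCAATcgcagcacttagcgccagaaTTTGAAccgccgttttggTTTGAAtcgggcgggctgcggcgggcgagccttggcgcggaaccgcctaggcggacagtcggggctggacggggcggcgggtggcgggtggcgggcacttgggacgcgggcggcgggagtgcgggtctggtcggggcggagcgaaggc
Ung: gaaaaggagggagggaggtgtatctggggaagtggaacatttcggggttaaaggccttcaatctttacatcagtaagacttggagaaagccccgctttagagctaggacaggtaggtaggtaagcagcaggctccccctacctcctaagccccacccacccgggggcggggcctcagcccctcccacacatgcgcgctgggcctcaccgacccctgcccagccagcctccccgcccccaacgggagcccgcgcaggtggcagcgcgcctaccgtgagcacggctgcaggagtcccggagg
Mcm7 has a further annotated start, whose window chr5:138171217-138171516 is not printed and held 1 CCAAT match and no other. The printed Mcm7 window held 1 E2F match, which overlaps a CCAAT match, 3 CCAAT matches in all and 1 TGACG match. Mki67 held 2 CHR and 3 CCAAT matches. The Ung window held none of these letters, and Aurkb has no entry. Over the 34 members with a promoter entry, CHR letters were found for 11 of 15 mitotic genes (73.3%) and 2 of 9 replication genes, against 20.2% of 27025 genes, and TTTGGCGC for 4 of 9 replication genes and 0 of 15 mitotic genes, against 0.585% of all genes. CCAAT was found for 13 of 15 mitotic and 7 of 9 replication genes, against 41.1% of all genes. A match of letters is a description of the window only.

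The levels of these genes differed widely between the tissues. Levels are given as TPM, a relative abundance within each library that is corrected for transcript length. In livers of vehicle mice the 20 mitotic genes had mean levels between 0.142 TPM (Bub1) and 1.38 TPM (Cdk1), and over all liver libraries they had 1 to 185 reads. In eWAT of vehicle mice the same genes ranged from 1.6 TPM (Cenpf) to 15.1 TPM (Top2a), with 61 to 5295 reads. Their summed level was 10.6 ± 1.65 TPM (SD, n = 6) in vehicle liver and 127.9 ± 26 TPM in vehicle eWAT. The replication genes also stood higher in eWAT, where Pcna, the sliding clamp of DNA polymerases, had 140.0 ± 28.2 TPM against 26.1 ± 1.65 TPM in liver. Dut and Ung were closer, with Ung at 3.44 ± 0.386 TPM in liver and 4.03 ± 0.644 TPM in eWAT. Sequencing depth was 21676902 to 53869104 recovered reads per liver library and 37573004 to 53996914 per eWAT library. All 44 genes passed the filter on low values in both tissues.

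The tissues matched their labels, since Alb, the main hepatocyte product, was at 43236 TPM or more in every liver library, and Adipoq, an adipocyte hormone, was at 740.04 TPM or more in every eWAT library and at most 0.55 TPM in liver. RNA of hepatocyte markers was also present in eWAT, where the 7 markers summed to 115.25 to 6294 TPM with vehicle and 465.2 to 2458 TPM at 30 nmol/kg BI456906. Alb had a mean of 1233 TPM in vehicle eWAT and 139.8 TPM at 30 nmol/kg, and Apoa1, Ttr, Serpina1a, Fgb and Cps1 were lower there too, while Cyp2e1 had 359.7 and 1213 TPM. Cyp2e1 thus went against the other markers, so the sum is not read as an amount of liver RNA. The source of these transcripts and their part in the eWAT values were not tested. Reads of some members may be shared with other genes. Processed pseudogenes exist for Pcna, Tyms, Ccnb1 and Ccnb2, and of the exonic bases of Kif20a 29.3% overlap Cdc23, and of those of Ccnd1 23.4% overlap LTO1, both on the opposite strand.

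Fold changes are log2 differences from a limma/voom model of the deposited scaled read values, with its standard error (SE) and an FDR over all genes tested in that tissue, and a gene is said to have risen or fallen where the FDR was at most 0.05. All comparisons with vehicle within a tissue share the same 6 vehicle mice. In bulk tissue, fewer cells of a type and less RNA per cell cannot be told apart.

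In the liver, the highest doses of BI456906 and semaglutide both lowered RNA of several replication genes and raised Cdkn1a and Mcm7. Ung rose further with BI456906. At 30 nmol/kg BI456906 6 of the 44 genes rose and 17 fell, while of all 15964 genes tested 28.9% rose and 29.9% fell. The lower doses gave 0 risen and 4 fallen at 3 nmol/kg (background 8.46% and 4.93%), 3 and 7 at 10 nmol/kg (19.4% and 18.1%), and 4 and 10 at 20 nmol/kg (23% and 22.9%). Semaglutide gave 4 and 10 at 20 nmol/kg (23% and 23.5%) and 5 and 21 at 100 nmol/kg (24% and 24.1%). The count at 3 nmol/kg went from 4 to 1 or 2 without any 1 of libraries 43, 45, 46, 48, 51, 53 and 54. The share of members that rose was below the background in all 6 comparisons. Groups without overlap were common. At 30 nmol/kg 2 members lay wholly above and 6 wholly below the vehicle libraries in TPM, against 18.6% and 10.8% of all genes. At 100 nmol/kg semaglutide 2 lay above and 2 below (11.9% and 5.51%). At 20 nmol/kg 1 lay above and 0 below with BI456906 (14.1% and 5.14%), and 1 above and 3 below with semaglutide (14.2% and 4.97%). The median log2 fold change of the members was −0.31 for BI456906 at 30 nmol/kg and −0.44 for semaglutide at 100 nmol/kg, where that over all genes lay between −0.03 and −0.01 in the 6 comparisons.

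**Figure D1:**
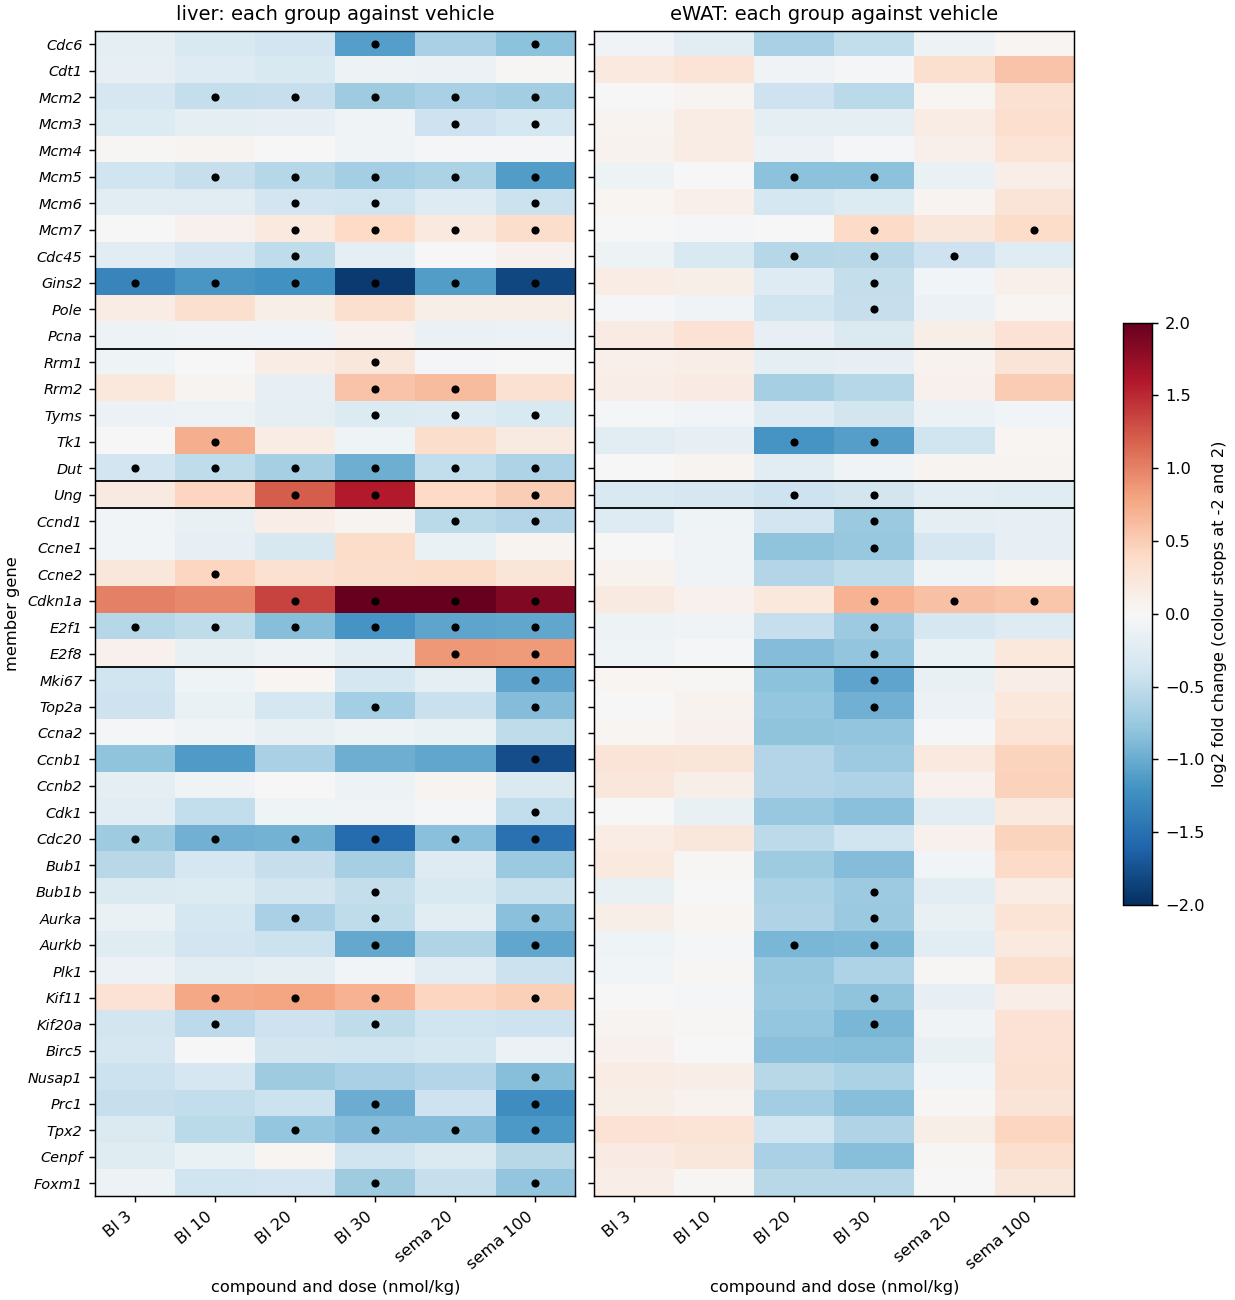
Log2 fold change against vehicle of the 44 genes (rows, by group) in liver and eWAT for the 6 treated groups (columns), from limma/voom with 6 mice per group. Dots mark an FDR of at most 0.05, and the colour scale stops at −2 and 2. In liver the dots lie in both the replication and the mitotic rows at the highest doses, and in eWAT they lie mainly in the column of 30 nmol/kg BI456906.

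Among the replication genes of the liver, no single direction was shared. Of 12, 1 rose and 5 fell at 30 nmol/kg BI456906, with a median log2 fold change of −0.14, and 1 rose and 6 fell at 100 nmol/kg semaglutide, with a median of −0.23. The background was 28.9% risen and 29.9% fallen for BI456906, and 24% and 24.1% for semaglutide. Mcm7, a subunit of the MCM2-7 helicase, ranged over 7.91, 10.0 and 11.76 TPM (lowest, median and highest) with vehicle, 11.17, 14.1 and 15.99 TPM with 30 nmol/kg BI456906 and 13.15, 14 and 14.69 TPM with 100 nmol/kg semaglutide. The semaglutide libraries all lay above the vehicle libraries, and the BI456906 libraries overlapped them. The log2 fold change of Mcm7 was 0.39 (SE 0.0705, FDR 1.06e-05) for BI456906 and 0.35 (FDR 0.000119) for semaglutide.

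The other MCM subunits had negative or near-zero fold changes at 30 nmol/kg BI456906. Mcm2 had 1.65, 2.02 and 2.54 TPM with vehicle and 1.15, 1.3 and 1.76 TPM with 30 nmol/kg BI456906, ranges that overlapped only at their ends (log2 fold change −0.71, FDR 2.06e-05). Mcm5 went from 1.48 ± 0.443 TPM with vehicle to 0.863 TPM with 30 nmol/kg BI456906 (−0.69, FDR 0.00245) and 0.64 ± 0.0963 TPM with 100 nmol/kg semaglutide (−1.12, FDR 2.73e-05). Mcm6 also fell at 30 nmol/kg (−0.39, FDR 0.0309), whereas Mcm3 and Mcm4 had log2 fold changes of −0.07 each (FDR 0.607 and 0.558). Mcm3 fell with semaglutide, by 0.42 at 20 nmol/kg (FDR 0.00252) and 0.34 at 100 nmol/kg (FDR 0.0108). Gins2, a subunit of the GINS complex that joins MCM in the active helicase, had the lowest fold change among the replication genes. It had 0.42, 0.88 and 1.87 TPM (18 to 57 reads) with vehicle and 0.11, 0.285 and 0.41 TPM (5 to 13 reads) with 30 nmol/kg, so the groups did not overlap (−1.92, SE 0.362, FDR 2.21e-05). Gins2 fell at every dose of both compounds, starting with −1.32 (FDR 0.00816) at 3 nmol/kg BI456906. Of the exonic bases of Gins2, 67.3% overlap Gse1 on the other strand, and the sources disagree on whether the libraries kept strand. Cdc6, which loads the helicase, fell by 1.10 on the log2 scale at 30 nmol/kg (FDR 0.00318), with 7 to 24 reads per vehicle library. Pcna stayed between 24 and 28.02 TPM with vehicle and between 27.35 and 30.55 TPM with 30 nmol/kg BI456906 (0.08, FDR 0.261).

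The nucleotide supply genes moved in both directions. Dut, the dUTPase, had 7.11, 8.43 and 10.19 TPM with vehicle and 3.52, 4.04 and 6.08 TPM with 30 nmol/kg BI456906, which did not overlap (−0.97, SE 0.136, FDR 1.34e-07). It fell at each dose, by 0.38, 0.51 and 0.66 on the log2 scale at 3, 10 and 20 nmol/kg (FDR 0.0364, 0.00146 and 6.41e-05), and fell with semaglutide by 0.49 at 20 nmol/kg and 0.62 at 100 nmol/kg (FDR 0.0018 and 0.000144). Tyms, which makes dTMP from dUMP, fell by 0.28 at 30 nmol/kg (FDR 0.00528). Rrm1 and Rrm2, the large and small subunits of ribonucleotide reductase, rose by 0.22 (FDR 0.0132) and 0.58 (FDR 0.0489). The call of Rrm2 was kept in only 5 of the 12 fits that each left out 1 of the libraries compared. Tk1, thymidine kinase, rose only at 10 nmol/kg, where 35.95 to 45.1 TPM stood against 20.18 to 36.22 TPM with vehicle (0.72, FDR 0.00375). Mcm3, Mcm4, Mcm6, Tyms, Rrm1, Rrm2 and Tk1, as well as E2f8 below, are named outside the rule for named genes, after their values were seen.

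**Figure D2:**
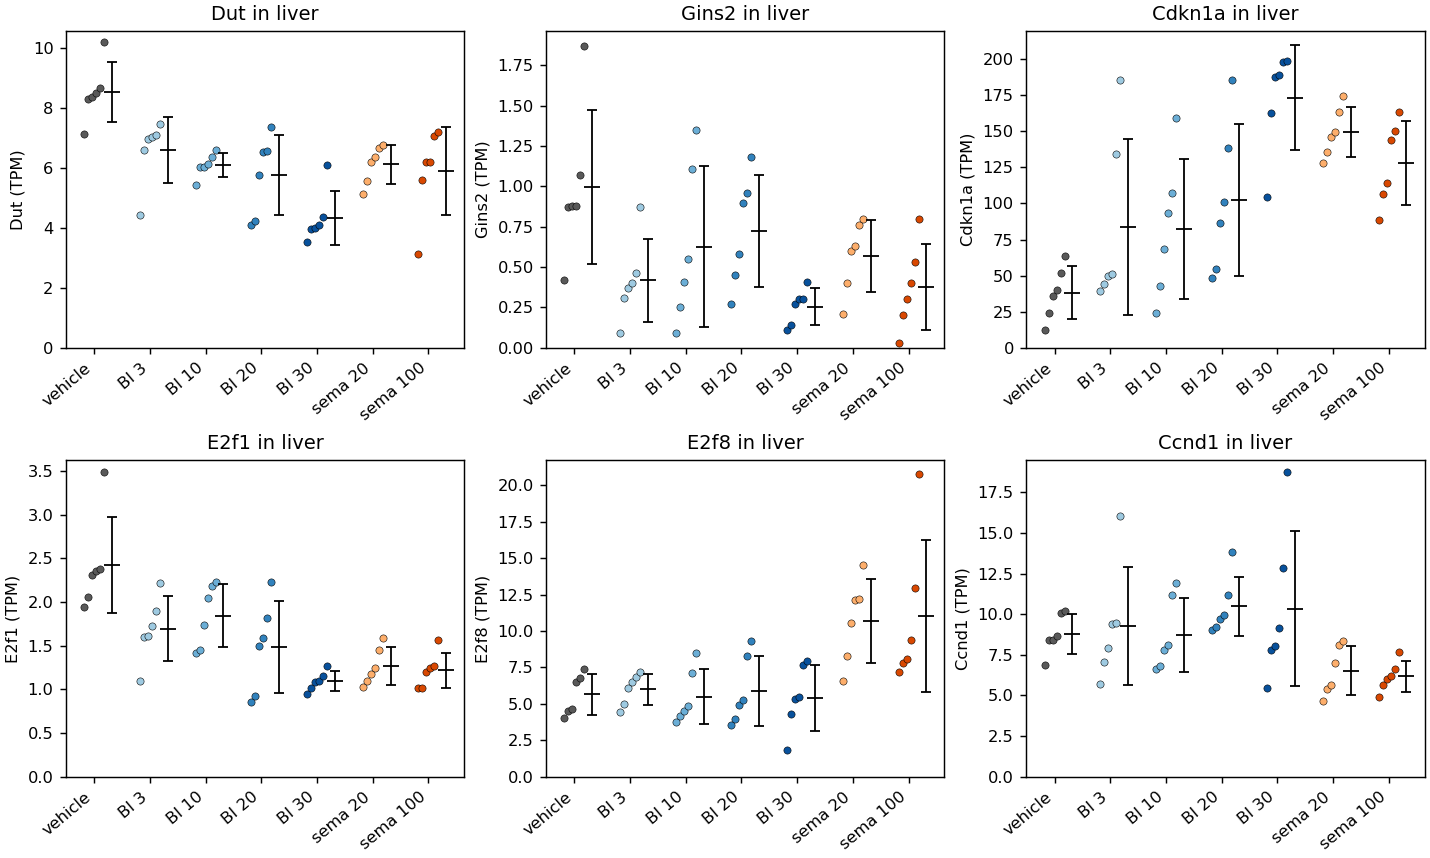
Levels in liver (TPM, linear axes from 0) of Dut, Gins2, Cdkn1a, E2f1, E2f8 and Ccnd1 in each of 42 libraries by group, with bars for the mean ± SD of 6 mice. Dut at 30 nmol/kg BI456906 ends at 6.08 TPM, under the lowest vehicle library at 7.11 TPM, and E2f8 stands higher with semaglutide than with 30 nmol/kg BI456906.

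Ung rose with the dose of BI456906 in liver. The 6 libraries had 2.8, 3.46 and 3.96 TPM in vehicle mice, 3.3, 3.77 and 5.18 TPM at 3 nmol/kg, and 3.5, 4.97 and 5.69 TPM at 10 nmol/kg. At 20 nmol/kg they had 7.13, 8.15 and 10.62 TPM and at 30 nmol/kg 9.81, 10.7 and 12.33 TPM. The libraries at 20 and 30 nmol/kg lay above every vehicle library and above every library at 3 and 10 nmol/kg, whose ranges overlapped vehicle. The slope over the doses was 0.55 log2 units per 10 nmol/kg (SE 0.0468, FDR 4.67e-12), with steps against vehicle of 0.18 (FDR 0.588), 0.43 (FDR 0.0649), 1.21 (FDR 5.18e-07) and 1.58 (FDR 6.45e-10). With semaglutide Ung had 3.44, 4.97 and 6.97 TPM at 20 nmol/kg (0.40, FDR 0.0815) and 3.09, 4.55 and 8.78 TPM at 100 nmol/kg (0.49, FDR 0.0294), both overlapping vehicle. The call at 100 nmol/kg was lost when any 1 of 5 libraries (vehicle libraries 43 and 44, semaglutide libraries 81, 82 and 83) was left out, with an FDR of up to 0.119, and also with quality weights (adjusted p 0.106) and with only the groups compared in the fit (adjusted p 0.0869).

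**Figure D3:**
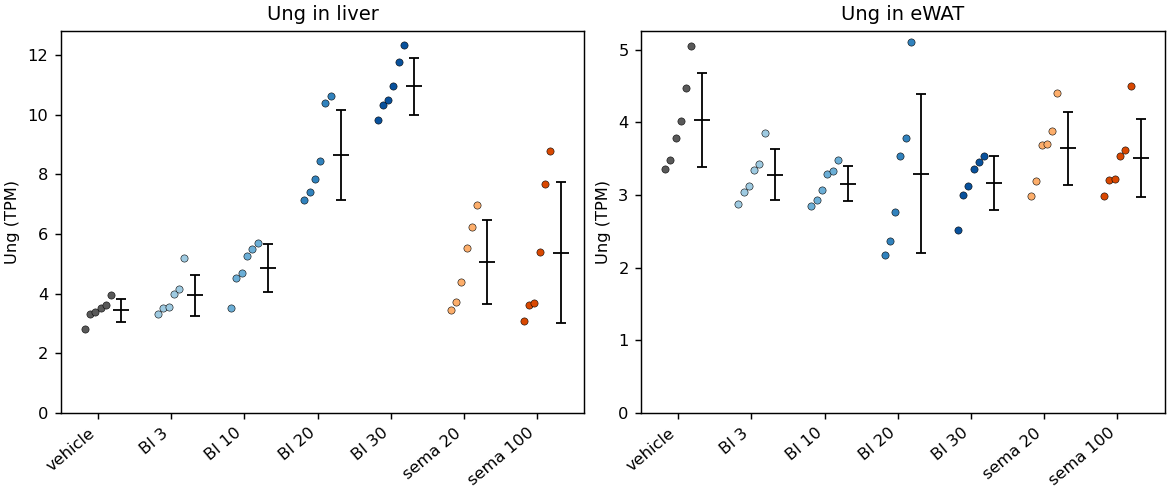
Ung level (TPM, linear axis from 0) in every liver and eWAT library by group, with the mean ± SD of 6 mice. In liver the libraries at 20 and 30 nmol/kg BI456906 start at 7.13 and 9.81 TPM, above the highest vehicle library at 3.96 TPM, and in eWAT the groups overlap.

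Other uracil and base excision repair genes of the liver did not share one direction. Of 21 tested, 6 rose and 8 fell at 30 nmol/kg BI456906, and 4 rose and 4 fell at 100 nmol/kg semaglutide. Of all genes tested 28.9% rose and 29.9% fell in the first comparison, and 24% and 24.1% in the second. This background also holds for the counts of the other liver lists below. Tdg, which removes thymine and uracil opposite guanine, went from 9.08 ± 0.771 to 14 ± 1.01 TPM at 30 nmol/kg (0.63, FDR 3.33e-06), and Smug1, a further uracil glycosylase, from 3.98 to 5.32 TPM (0.36, FDR 7.89e-06). Mbd4, which acts at methylated CpG sites, fell from 0.89 to 0.673 TPM (−0.39, FDR 0.0423). The glycosylases for oxidized bases Neil2 (0.948 to 0.368 TPM, FDR 6.51e-06) and Neil3 (0.153 to 0.0733 TPM, FDR 0.00487) fell. Downstream, Lig3, a DNA ligase of this pathway, rose from 6.29 to 10.9 TPM (0.57, FDR 5.2e-07) and Apex2 from 4.63 to 7.95 TPM (0.85, FDR 7.17e-05), while the main abasic endonuclease Apex1 had 23.2 and 22.7 TPM (−0.09, FDR 0.414). Smug1, Mbd4, Neil3, Apex1 and Apex2 are named outside the rule.

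The replication repair genes gave 3 risen and 3 fallen of 18 tested at 30 nmol/kg. Rpa1 (18.1 to 14.3 TPM) and Rpa3 (9.28 to 6.75 TPM), subunits of the single-strand DNA binding protein, fell by 0.46 and 0.45 on the log2 scale, and Brca2, of recombination repair, had a log2 fold change of 0.62 (FDR 0.00207), a call that was lost on log2 TPM values. Of 30 further replication genes 4 rose and 8 fell, with Prim1, a primase subunit, at 1.58 TPM with vehicle against 3.18 TPM at 30 nmol/kg (0.92, FDR 9.72e-07), and the clamp loader genes Rfc4 and Rfc2 lower by 0.72 and 0.45. Of 18 further nucleotide pool genes 2 rose and 9 fell. Nudt1, which clears oxidized nucleotides, fell from 35 ± 1.59 to 19.5 ± 2.43 TPM (−0.92, FDR 5.82e-11), Upp1, uridine phosphorylase, fell by 1.06, and Shmt2, a mitochondrial one-carbon enzyme, fell by 0.52.

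Control of the G1 to S step showed a rise of an inhibitor and a fall of an activator. Cdkn1a, which encodes the cyclin-dependent kinase inhibitor p21, had 12.53, 38.1 and 63.56 TPM in vehicle mice, 104.58, 188.5 and 198.58 TPM at 30 nmol/kg BI456906 and 127.78, 147.9 and 174.31 TPM at 20 nmol/kg semaglutide. Both treated groups lay above all vehicle libraries, which themselves spread over a wide range. The log2 fold change was 2.29 (SE 0.402, FDR 6.88e-06) and 2.08 (FDR 5.34e-05) in these groups, 1.85 (FDR 0.00022) at 100 nmol/kg semaglutide and 1.00 (FDR 0.0799) at 3 nmol/kg BI456906. E2f1, an activator of S phase genes, had 1.94, 2.33 and 3.49 TPM with vehicle against 0.95, 1.09 and 1.27 TPM at 30 nmol/kg, with no overlap (−1.18, SE 0.162, FDR 9.37e-08), and it fell in each treated group.

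Ccnd1, cyclin D1, and E2f8, a repressor of E2F targets, moved with semaglutide. Ccnd1 fell by 0.53 at 20 nmol/kg (FDR 0.033) and by 0.58 at 100 nmol/kg (FDR 0.0203, lost without library 81), and had a log2 fold change of 0.05 at 30 nmol/kg BI456906. E2f8 had 4.02, 5.6 and 7.41 TPM in vehicle mice, 6.54, 11.3 and 14.53 TPM at 20 nmol/kg semaglutide (0.86, FDR 0.0108) and 7.17, 8.73 and 20.77 TPM at 100 nmol/kg (0.85, FDR 0.0116). Its 6 libraries at 30 nmol/kg BI456906 spread over 1.8, 5.38 and 7.91 TPM (−0.23, FDR 0.53). Of 25 brakes of the cell cycle and p53 targets 8 rose and 10 fell at 30 nmol/kg. The p53 targets Trp53inp1 (11.3 to 29.3 TPM, 1.26, FDR 4.08e-09) and Bbc3 (11.4 to 5.12 TPM, −1.18, FDR 1.83e-07) went in opposite directions, and the retinoblastoma gene Rb1 rose from 2.35 to 3.64 TPM. Of 16 other G1 cyclin and E2F genes 5 rose and 6 fell, among them Tfdp2, an E2F partner, at 4.47 and 10.3 TPM (0.91, FDR 2.34e-09), Cdk6, a cyclin D kinase, which fell by 0.86, and Mycl, which fell by 0.57.

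Several mitotic genes of the liver fell at the highest dose of each compound, from low levels. Of 20, 1 rose and 9 fell at 30 nmol/kg BI456906 (median log2 fold change −0.51) and 1 rose and 11 fell at 100 nmol/kg semaglutide (−0.76), and 19 of 20 values were negative in each. Of all genes tested 28.9% rose and 29.9% fell at 30 nmol/kg BI456906, and 24% and 24.1% at 100 nmol/kg semaglutide. At 3, 10 and 20 nmol/kg BI456906, 1, 2 and 3 of the 20 mitotic genes fell. The background there was 4.93%, 18.1% and 22.9%, so at 10 and 20 nmol/kg the mitotic share was below it. Cdc20, which activates the anaphase-promoting complex, had 0.53, 0.67 and 0.97 TPM (27 to 47 reads) with vehicle and 0.15, 0.29 and 0.37 TPM (8 to 17 reads) at 30 nmol/kg, with no overlap (−1.54, SE 0.278, FDR 1.06e-05), and fell in all 6 comparisons. Mki67, which encodes the Ki-67 antigen of cycling cells, had 0.16, 0.33 and 0.39 TPM with vehicle against 0.11, 0.15 and 0.18 TPM at 100 nmol/kg semaglutide (−1.06, FDR 0.000868), and 0.247 TPM on average at 30 nmol/kg BI456906 (−0.35, FDR 0.2). The highest semaglutide library reached just past the lowest vehicle library. Top2a, DNA topoisomerase II alpha, fell by 0.67 (FDR 0.0279) and 0.87 (FDR 0.00861). Ccnb1, cyclin B1, fell by 1.77 at 100 nmol/kg semaglutide (FDR 0.00758), where it had 2 to 6 reads per library against 9 to 23 with vehicle.

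The mitotic kinase genes Aurka and Aurkb fell by 0.51 (FDR 0.0411) and 1.02 (FDR 0.0207) at 30 nmol/kg BI456906. The call of Aurka was also lost in 6 alternative fits (adjusted p 0.054 to 0.12). These calls, and that of Top2a, rest on few reads, and were kept in 5, 10 and 7 of 12 fits that each left out 1 library. The spindle genes Tpx2 (−0.87, FDR 0.00622) and Prc1 (−1.0, FDR 0.00779) fell on reads, but their mean TPM was 0.297 and 0.38 with vehicle and 0.277 and 0.427 at 30 nmol/kg, and on log2(TPM + 1) values Tpx2 turned to 0.0098 (adjusted p 0.933). Kif11, the spindle motor, was the 1 mitotic gene that rose, with 0.16, 0.22 and 0.4 TPM with vehicle against 0.33, 0.395 and 0.46 TPM at 30 nmol/kg (0.70, FDR 0.00166). The ranges overlapped. Among 28 other mitotic genes 1 rose and 15 fell at 30 nmol/kg and 0 rose and 14 fell at 100 nmol/kg semaglutide, with Ube2c, a ubiquitin-conjugating enzyme of mitotic exit, at 1.05 and 0.377 TPM (−1.62, FDR 2.04e-05), Ckap2l at −1.14 and the checkpoint gene Mad2l1 at −0.67.

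The fall of the mitotic genes in liver went together with a lower summed level of lipid-associated macrophage markers. The 7 markers summed to 54.02 to 210.67 TPM in vehicle mice, 37.39 to 105.75 TPM at 30 nmol/kg BI456906 and 45.02 to 74.97 TPM at 100 nmol/kg semaglutide. Over 42 liver libraries the log2 sums of mitotic genes and of these markers correlated with r = 0.71 and rho = 0.66 (both permutation p 1e-05, the smallest that 100000 permutations can give, adjusted p 2e-05 over 6 relations). Without the 2 libraries farthest from the median of the marker sum r was 0.64, and within the 7 groups it was between 0.10 and 0.91. Once group means were taken out, r was 0.65. With the marker sum as a covariate, chosen after the data were seen, 6 members rose and 6 fell at 30 nmol/kg, 1 of them mitotic, and the median of the mitotic genes was −0.16. The share of all genes called in that fit was not computed, so its counts are not read as particular to the members. Spp1 made up most of the sum, with 75.2 TPM in vehicle liver and 21.4 TPM at 30 nmol/kg, whereas Cd9 of the same list had 18.4 and 24 TPM. By the F test over the treated groups Trem2 (FDR 0.0964) and Gpnmb (FDR 0.442) did not pass, whereas Spp1, Mmp12, Atp6v0d2, Itgax and Cd9 did. Other marker sums were lower as well. From vehicle to 30 nmol/kg BI456906 and 100 nmol/kg semaglutide, the mean sum of fibroblast and stellate markers went from 245.0 to 167.4 and 175.0 TPM and that of neutrophil markers from 5.73 to 3.46 and 2.97 TPM. The sum of adipocyte markers, most of it Cidec, went from 164.9 to 67.2 and 69.5 TPM. It correlated with the mitotic sum with r = 0.36 (permutation p 0.0193, adjusted p 0.0232) and rho = 0.32 (permutation p 0.0405, adjusted p 0.0486). For this pair r was 0.23 without the 2 farthest libraries and between −0.54 and 0.72 within groups, and 0.18 once group means were taken out. The sum of the 10 general macrophage markers was 310.5 TPM with vehicle against 286.7 TPM at 30 nmol/kg, and correlated with the mitotic sum with r = 0.17 (permutation p 0.275) and rho = 0.086 (permutation p 0.585). Adipoq of the adipocyte list was hardly present in liver, as given above, so that sum is not read as adipocyte content. The covariate fit cannot tell fewer cells from less marker RNA per cell, and the part of any cell type in the fall was not tested.

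**Figure D4:**
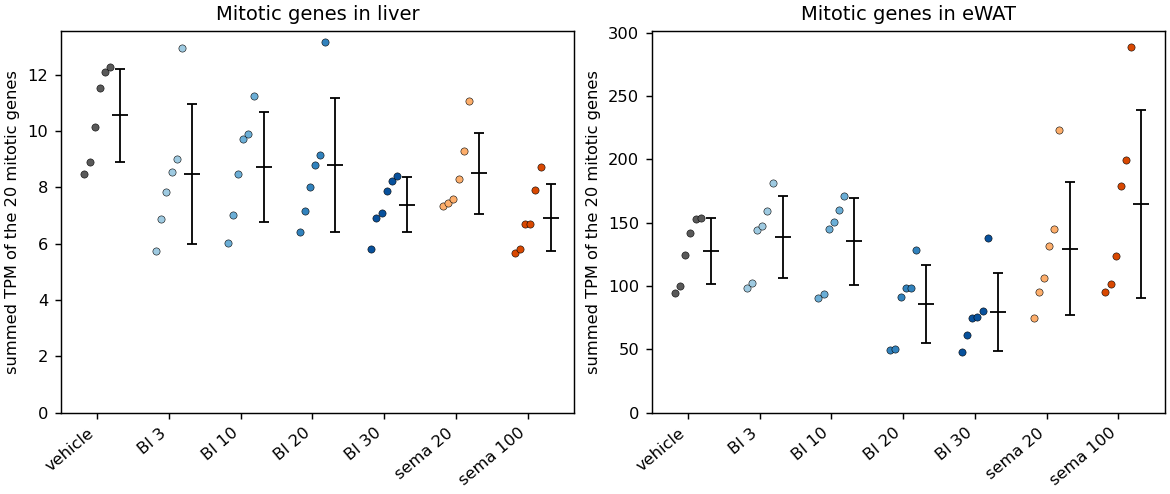
Summed level (TPM) of the 20 mitotic genes in each library of liver and eWAT by group, with the mean ± SD of 6 mice on linear axes. Vehicle liver spans 8.47 to 12.28 TPM and 30 nmol/kg BI456906 5.81 to 8.41 TPM, and in eWAT library 29 at 137.95 TPM stands far above the rest of its group.

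Over the BI456906 doses in liver, 5 members rose and 14 fell by slope (background 29.3% and 29.6%). Beside Ung the slopes that rose were Cdkn1a at 0.61, Kif11 at 0.21, Mcm7 at 0.13 and Rrm1 at 0.09 log2 units per 10 nmol/kg. The steepest falls were Gins2 at −0.43, Cdc20 at −0.40, E2f1 at −0.32, Cdc6 at −0.31, Aurkb at −0.28 and Dut at −0.27. By class, 6 of 20 mitotic and 5 of 12 replication genes fell with dose.

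The compounds were compared in 2 pairs of groups per tissue, with FDR values over all genes tested. At the 1 matched dose, 20 nmol/kg, 1 member rose and 0 fell in liver with BI456906 relative to semaglutide (background 0.908% and 1.51%). That gene was Ung, higher by 0.81 on the log2 scale with BI456906 (95% interval 0.48 to 1.14, FDR 0.00278). The difference was −0.17 for Dut (−0.45 to 0.10, FDR 0.618), −0.73 for Cdkn1a (−1.55 to 0.09, FDR 0.424), 0.67 for Ccnd1 (0.25 to 1.09, FDR 0.0724) and −0.96 for E2f8 (−1.53 to −0.39, FDR 0.0575). E2f8 passed the threshold without library 62, 65 or 78. These intervals leave room for sizeable differences, so a missed threshold does not show that the compounds acted alike.

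At the highest doses, which differ (30 nmol/kg BI456906 and 100 nmol/kg semaglutide), 3 liver members were higher and 1 lower with BI456906 (background 4.15% and 5.59%). Ung was higher by 1.10 (0.78 to 1.41, FDR 9.41e-06) and E2f8 lower, with a log2 difference of −1.08 (−1.66 to −0.50, FDR 0.0124), and both calls were kept whichever library was left out. Ccnd1 was higher by 0.63 (0.21 to 1.05, FDR 0.0466) and Pcna by 0.19 (0.07 to 0.31, FDR 0.0336), but these calls were kept in only 2 and 5 of 12 such fits, and the count went to 2 without library 68, 69, 72, 79, 80 or 84. Dut had a difference of −0.35 (−0.64 to −0.05, FDR 0.123).

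In eWAT, 30 nmol/kg BI456906 lowered genes of both replication and mitosis. Of the 44 genes 2 rose and 17 fell, while of 18536 genes tested 10.9% rose and 13% fell, and the median log2 fold change was −0.62 against −0.03 over all genes. The fallen genes were 7 of 20 mitotic, 4 of 12 replication, 1 of 5 nucleotide supply and 4 of 6 G1 to S genes, and Ung. The background of 10.9% and 13% also holds for the counts of other eWAT lists at 30 nmol/kg below. In TPM, 2 members lay wholly above and 3 wholly below the vehicle libraries at 30 nmol/kg, against 3.41% and 2.9% of all genes. At 20 nmol/kg BI456906 0 lay above and 4 below (1.49% and 0.982%), and at 100 nmol/kg semaglutide 1 lay above and 0 below (1.19% and 2.21%). At 20 nmol/kg 0 rose and 5 fell (1.36% and 2.91%). At 3 and 10 nmol/kg limma/voom called no member in either direction (background 0.00539% and 0%, then 0.0486% and 0.464%), with 1 and 2 members at an unadjusted p under 0.05. Over the doses 2 members rose and 35 fell by slope (13.8% and 15.8%), among them 20 of 20 mitotic genes whose median slope was −0.32 log2 units per 10 nmol/kg. The fall was not steady from vehicle on. The mean replication sum was 285.25 TPM with vehicle, 306.25 and 323.08 TPM at 3 and 10 nmol/kg, and 258.05 and 251.44 TPM at 20 and 30 nmol/kg. The mean mitotic sum at 3 and 10 nmol/kg was not lower than with vehicle either, so the slope also reflects these higher low-dose levels.

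The call counts at 20 and 30 nmol/kg depended on single libraries. The count at 30 nmol/kg went from 19 members to 8 without BI456906 library 25, to 11 without library 30 and to 27 without library 29. At 20 nmol/kg it went from 5 to 1 without vehicle library 3 or BI456906 library 23 or 24, and to 2 or 3 without any 1 of libraries 1, 2, 4, 5, 6, 19, 20 and 22. Library 29 had the highest mitotic sum of its group, 137.95 TPM, in a group with a lowest sum of 47.95 TPM. Without vehicle libraries 1 and 3, which had the most T cell marker RNA (103.6 and 135.9 TPM), 2 rose and 5 fell, none of them mitotic, and by slope 2 rose and 31 fell.

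Mki67 in eWAT had 6.78, 10.5 and 12.31 TPM in vehicle mice, 2.97, 6.49 and 9.09 TPM at 20 nmol/kg BI456906 and 3.23, 4.62 and 6.58 TPM at 30 nmol/kg. The libraries at 30 nmol/kg all lay below vehicle (−1.06, SE 0.295, FDR 0.00902), and those at 20 nmol/kg overlapped it (−0.81, FDR 0.0979). Top2a had 9.95, 16.0 and 19.39 TPM with vehicle against 4.9, 8.44 and 15.76 TPM at 30 nmol/kg, which overlapped (−0.96, FDR 0.0285, kept in 8 of 12 fits that left out a library and lost on log2 TPM values). Aurkb fell from 8.28 to 4.51 TPM (−0.90, FDR 0.0173, lost without library 25), Aurka from 3.63 to 2.29 TPM (−0.74, FDR 0.0374, kept in 4 of 12) and the kinesin gene Kif20a from 3.89 to 2.14 TPM (−0.92, FDR 0.0293, kept in 6 of 12). Ccna2, cyclin A2, had 6.51 and 3.98 TPM (−0.78, FDR 0.0599). Of 30 other mitotic genes 0 rose and 7 fell at 30 nmol/kg and 26 fell by slope, with Hmmr at −1.25 (FDR 0.0183), the kinetochore gene Knl1 at −1.02 (FDR 0.0117) and the kinesin gene Kif15 at −0.89.

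Among replication and nucleotide genes of eWAT, Tk1 had 11.29, 18.4 and 26.66 TPM with vehicle against 5.87, 8.33 and 16.26 TPM at 30 nmol/kg (−1.11, FDR 0.0149). It had already fallen at 20 nmol/kg (−1.19, FDR 0.0365), and the ranges at 30 nmol/kg and vehicle overlapped. Mcm5 went from 15.8 ± 3.25 to 9.2 ± 2.16 TPM (−0.83, FDR 0.0117), the helicase partner Cdc45 from 6.55 to 4.56 TPM (−0.55, FDR 0.00142) and Gins2 from 15.7 to 11.1 TPM (−0.48, FDR 0.0262, kept in 7 of 12). Mcm7 rose here too, from 25.42, 26.1 and 27.24 TPM with vehicle up to 30.57, 39.3 and 44.33 TPM at 30 nmol/kg (0.38, SE 0.093, FDR 0.00337) and 29.35, 32.5 and 42.31 TPM at 100 nmol/kg semaglutide (0.37, FDR 0.00682). Both treated ranges lay above vehicle. Pcna had 117.6 TPM at 30 nmol/kg (−0.29, FDR 0.329). Of 31 other replication genes 1 rose and 4 fell, with Mcm10, an initiation factor, at 4.42 and 1.84 TPM (−1.19, FDR 0.00298), Uhrf1, which copies DNA methylation after replication, at 6.58 and 3.33 TPM (−1.15, FDR 0.00612) and the initiation kinase gene Cdc7 at −0.29. Of 19 further nucleotide pool genes 1 rose and 4 fell, with Nudt1 at −0.50 (FDR 0.000466), Umps of pyrimidine synthesis at −0.32 and Impdh2 of guanine nucleotide synthesis at 0.31 (FDR 0.00116).

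Ung in eWAT had 3.36, 3.9 and 5.06 TPM with vehicle against 2.52, 3.24 and 3.54 TPM at 30 nmol/kg BI456906. The ranges overlapped, and Ung fell by 0.37 on the log2 scale (FDR 0.0234), a call kept in 5 of 12 fits that left out a library, and by 0.41 at 20 nmol/kg (FDR 0.041). The call at 30 nmol/kg was also lost with library size alone (adjusted p 0.0543), with no filter (0.0631), on log2(TPM + 1) and log2(TPM + 0.1) values (0.0756 and 0.0815) and with only the groups compared in the fit (0.0654). The F test over the 6 treated groups did not pass for Ung in eWAT. Dut had 12.7 and 12.5 TPM (−0.06, FDR 0.707), and of the other uracil glycosylases Tdg had −0.12 (FDR 0.312), Smug1 −0.01 and Mbd4 −0.10, which are named outside the rule. Of 21 base excision repair genes 3 rose and 2 fell, with the scaffold gene Xrcc1 at 0.19 (FDR 0.0191), the alkyladenine glycosylase gene Mpg at 0.21 (FDR 0.0241) and Apex2 at −0.22 (FDR 0.0184), a call that was lost with library size alone, no filter, quality weights or only the groups compared (adjusted p 0.0676 to 0.138). Of 20 replication repair genes 0 rose and 6 fell, with Fanci, of crosslink repair, at −0.92 (FDR 0.0259) and the fork protection gene Timeless at −0.38.

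The G1 to S genes of eWAT showed a rise of Cdkn1a in 3 treated groups. It had 64.19, 93.6 and 112.76 TPM with vehicle against 119.42, 142.6 and 157.0 TPM at 30 nmol/kg BI456906, which did not overlap (0.70, SE 0.147, FDR 0.000842), and rose by 0.59 and 0.56 at 20 and 100 nmol/kg semaglutide (FDR 0.0109 and 0.00794). Ccnd1 had 19.73, 32.3 and 39.77 TPM with vehicle against 15.15, 18 and 20.96 TPM at 30 nmol/kg (−0.75, FDR 0.00373), and E2f1 went from 19.4 ± 0.869 to 12.5 ± 3.6 TPM (−0.73, FDR 0.00421). Of 25 brakes and p53 targets 5 rose and 8 fell, with the stress gene Gadd45g at 37 and 94.2 TPM (1.34, FDR 1.74e-05), Ccng1 at −0.54 (FDR 2.41e-05) and Cdkn2a, which encodes p16 and ARF, at 5.48 and 2.03 TPM (−1.17, FDR 0.00307). Of 16 other G1 genes 3 rose and 1 fell, with Mycl at 5.16 and 23.1 TPM (2.12, FDR 0.00637), Myc at 0.48 (FDR 0.0135) and Ccnd2, cyclin D2, at −0.67.

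Semaglutide moved few of these genes in eWAT. At 20 nmol/kg 1 rose and 1 fell (background 1.8% and 4.54%), namely Cdkn1a and Cdc45 (−0.41, FDR 0.0325), and 1 of these calls was lost without any 1 of libraries 5, 6, 31, 32, 33 and 34. At 100 nmol/kg 2 rose, Cdkn1a and Mcm7, and 0 fell (5.48% and 9.42%), with 4 called without library 38. All 20 mitotic genes had positive fold changes at 100 nmol/kg and none passed. Their summed level was 95.32 to 289.03 TPM, against 94.32 to 153.59 TPM with vehicle, with the highest value in library 40. That library also had 516.34 TPM of neutrophil markers, against at most 33.53 TPM in every other eWAT library, and the highest sum of fibroblast markers, 4570.5 TPM.

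At 20 nmol/kg limma/voom found no member different between BI456906 and semaglutide in eWAT (background 0% in each direction), although 26 members had an unadjusted p under 0.05, as did 815 of all genes, and edgeR found 0 members. At the highest doses, which differ, limma/voom again called 0 members (0.0108% and 0%). The median difference of the members was −0.86, and all 20 mitotic genes were lower with BI456906 (median −1.07). This outcome depended on the tool and on single libraries. The quasi-likelihood test of edgeR gave 18 members lower with BI456906, 12 of them mitotic, and limma/voom gave 36 members without BI456906 library 29, 23 without semaglutide library 38 and 29 without library 39. The share of all genes called in these alternative fits was not computed, so the counts are not read as particular to the members. For Mki67 the difference was −1.19 (95% interval −1.79 to −0.59, FDR 0.054).

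The mitotic sum of eWAT followed the general macrophage marker RNA of the library. The 10 macrophage markers summed to 2975 to 8181 TPM in vehicle mice, 3466 to 8355 TPM at 30 nmol/kg BI456906 and 4980 to 9976 TPM at 100 nmol/kg semaglutide, where Clec4f and Timd4, markers of resident macrophages of liver and body cavities, stayed at or below 4.85 and 2.91 TPM in every library. Over 42 libraries the log2 sums correlated with r = 0.88 and rho = 0.90 (both permutation p 1e-05, the smallest possible, adjusted p 2e-05), r was 0.89 without the 2 libraries farthest from the median, and between 0.87 and 0.99 within each of the 7 groups. Against the 7 adipocyte markers r was −0.83 and rho −0.86 (both permutation p 1e-05, adjusted p 2e-05), and r was between −0.99 and −0.85 within groups. The lipid-associated macrophage markers behaved differently. Their mean sum was 3912 TPM in vehicle mice and 6279 and 5138 TPM at 20 and 30 nmol/kg BI456906, where the mitotic sum was lower. These markers also had a higher mean sum than vehicle in every other treated group, where the mean mitotic sum was not lower. Over all libraries their sum correlated with the mitotic sum with r = 0.61 and rho = 0.64 (both permutation p 4e-05, adjusted p 6e-05), r was 0.58 without the 2 farthest libraries and between −0.07 and 0.94 within groups. With the macrophage sum as a covariate, chosen after the data were seen, 3 members rose and 23 fell at 30 nmol/kg, 12 of them mitotic, and 3 rose and 30 fell by slope. The share of all genes called with this covariate was not computed, so these counts are not read as particular to the members. Between the highest doses the covariate moved the median difference of the members to −0.33, with 0 called. Here too the covariate fit cannot tell fewer cells from less marker RNA per cell, and the part of macrophages in these values was not tested.

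**Figure D5:**
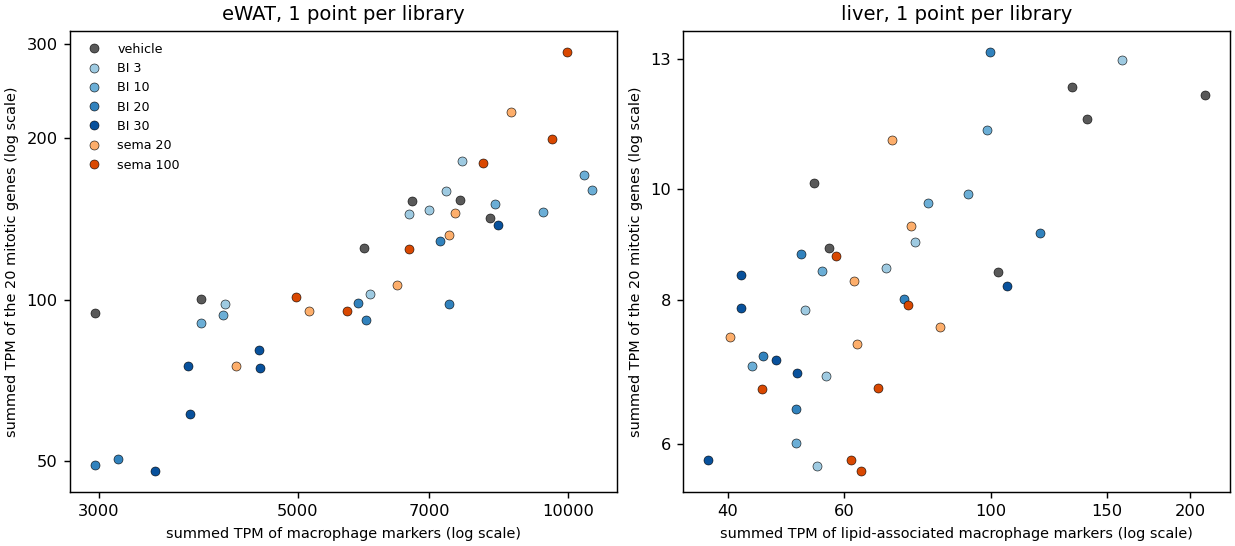
Summed TPM of the 20 mitotic genes in each library against the summed TPM of macrophage markers in eWAT (left) and of lipid-associated macrophage markers in liver (right), on log axes, with 42 libraries per panel coloured by group. The points rise together, with r = 0.88 in eWAT and r = 0.71 in liver.

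The response differed between tissues for 12 members at 30 nmol/kg BI456906, by the interaction of tissue and treatment over 84 libraries. Of 44 members 3 had a higher and 9 a lower log2 fold change in eWAT than in liver (background 25.5% and 20.6% of 15342 genes). The share of members with a higher value was thus below the background, and the share with a lower value was close to it. The difference was −1.84 for Ung (SE 0.218, FDR 1.44e-10), −1.49 for Cdkn1a, −1.40 for Kif11, −0.93 for Tk1 and −0.68 for Ccnd1, and 1.55 for Gins2, 1.26 for Cdc20 and 1.00 for Dut. At 100 nmol/kg semaglutide 9 members were higher and 2 lower in eWAT (16.6% and 17.1%), led by Ccnb1 at 2.26, Cdc20 at 2.0 and Gins2 at 1.96, with Ung at −0.66 and Cdkn1a at −1.24, and 7 members differed in all without eWAT library 40.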

How the data were processed

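The members and gene lists were chosen with earlier results of these data known. The authors deposited, for each tissue, a read signal (reads per gene divided by 1 size factor per library) and TPM values. Whole reads were recovered from the signal for 100% of values (tolerance 1e-06). The submitters' notes name STAR 2.5.2b, RSEM 1.3.0, featureCounts 1.5.1, FastQC 0.11.5 and mm10/GRCm38, without roles. The paper describes directional paired-end poly(A) libraries and the labels another kit read from a single end. GENCODE M21 paired 48348 of 48794 identifiers with symbols.

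The deposited signal was tested with limma/voom (limma 3.58.1 and edgeR 4.0.16 in R 4.3.3) with TMM, a pseudocount of 0.5 and filterByExpr, in 1 fit over 7 groups per tissue, with Benjamini-Hochberg adjustment over all genes tested. Tissue differences were an interaction on recovered reads. Marker sums were related by Pearson and Spearman correlation with 100000 two-sided permutations. These permutations ran over all libraries of a tissue without regard to group, so their p-values do not set differences between groups apart. The procedure was tested on simulated data. Samples of a group were different mice, and no preparation batch is named.

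Named genes were Ung, Mki67, Top2a, Ccnd1, Cdkn1a and Pcna, the 5 replication or nucleotide and the 5 mitotic members with the smallest F test p, members past a log2 fold change of 1 at the highest doses, and the 3 genes of each comparison list with the smallest p at 30 nmol/kg BI456906. A gene that this rule names is not reported here. Alternatives were RLE factors, library size alone, other filters, recovered reads, edgeR, DESeq2 1.42.0, log2 TPM values, quality weights, only the groups compared, covariates and leaving out libraries. No 2 libraries agreed within sampling noise, and intervals cover the spread between mice.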

Additional observations from a re-analysis of the deposited data

Results flagged for a closer look

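A library was singled out where its gap to the nearest of the other 5 was a share of its group's range above Dixon's critical value for 6 values, which was the case in 9 of 126 groups tested, and chance gives about 1 in 20. In liver these were Pcna at 28.44 TPM in library 74 (20 nmol/kg semaglutide), Ccnd1 at 16.07 TPM and Mki67 at 0.51 TPM in library 49 (3 nmol/kg BI456906), Mki67 at 0.49 TPM in library 75 (20 nmol/kg semaglutide) and Top2a at 0.89 TPM in library 79 (100 nmol/kg semaglutide). In eWAT they were Pcna at 173.64 TPM, the mitotic sum at 137.95 TPM and the replication sum at 329.13 TPM, all in library 29 (30 nmol/kg BI456906), and Top2a at 38.28 TPM in library 40 (100 nmol/kg semaglutide).

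The following fold changes differed between tissues by the interaction test (eWAT minus liver, log2). For 30 nmol/kg BI456906 the differences were −0.68 for Ccnd1, −1.49 for Cdkn1a, 1.26 for Cdc20, −1.40 for Kif11, 1.00 for Dut, −0.93 for Tk1, 1.55 for Gins2 and −1.84 for Ung. For 100 nmol/kg semaglutide they were −1.24 for Cdkn1a, 0.82 for E2f1, 1.13 for Aurka, 2.26 for Ccnb1, 2.0 for Cdc20, 0.69 for Dut, 1.96 for Gins2, 1.06 for Mcm2, 1.28 for Mcm5 and −0.66 for Ung.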

How the results depend on the processing

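No paired analysis was possible because each library carries a number of its own. Of 127 counts of members recomputed under the alternatives, 21 moved by over 1.5 times, and the cause was not tested. The share of all genes called was computed for the main fits only. In liver, the count for 20 nmol/kg BI456906 against 20 nmol/kg semaglutide went from 1 to 2 with library size alone and with the lipid-associated macrophage covariate, and that between the highest doses from 4 to 2 with library size alone. The count for 100 nmol/kg semaglutide went from 26 to 17 with at least 10 reads in every library (31 members tested), 15 on log2(TPM + 1), 16 on log2(TPM + 0.1) and 14 with the covariate. The slope went from 19 to 12 with at least 10 reads, 3 nmol/kg from 4 to 2 and 10 nmol/kg from 10 to 6 on log2(TPM + 1), and 30 nmol/kg from 23 to 12 with the covariate. In eWAT, 30 nmol/kg went from 19 to 12 with no filter, 39 with quality weights and 7 without vehicle libraries 1 and 3, 100 nmol/kg semaglutide from 2 to 4 with the macrophage covariate, and the highest doses from 0 to 5 with library size alone, 18 with edgeR and 1 on log2(TPM + 1). The tissue difference went from 12 to 5 with no filter for BI456906, and from 11 to 22 with edgeR and 21 with quality weights for semaglutide. Leaving out 1 library gave, in liver, 1 to 6, 7 to 13, 11 to 17 and 17 to 23 members at 3, 10, 20 and 30 nmol/kg, 12 to 16 and 20 to 26 for semaglutide at 20 and 100 nmol/kg, 17 to 22 for the slope, and 1 to 2 and 2 to 4 between compounds. In eWAT it gave 0 to 0, 0 to 0, 1 to 5 (1 without library 3, 23 or 24) and 8 to 27, then 1 to 2 and 2 to 4, 31 to 38 for the slope, and 0 to 0 and 0 to 36 between compounds. For the tissue difference it gave 8 to 12 and 7 to 14 (7 without library 40). Of 859 values for named genes, 815 kept their direction and side of the threshold, 36 no longer passed, 7 newly passed and 1 reversed, Tpx2 in liver at 0.009842 on log2(TPM + 1). Low reads limit the mitotic genes of the liver.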
